A study of Mus musculus with 6 samples.

Results

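The genes described here are Lin28b, Igf2bp1, Igf2bp2, Igf2bp3, Hmga1, Hmga2, Sox4 and Sox11, a set of RNA-binding proteins, chromatin proteins and transcription factors that belong to the fetal growth program. They were chosen by gene symbol, and all 8 were found among the 22026 genes listed in each sample. The levels come from RNAseq of choroid endothelial cells (ECs), the cells lining the vessels that supply the outer retina, of 129/B6 mice at postnatal day 5 (P5), when the retina is still differentiating, and at postnatal day 30 (P30), when vision is mature. Each age had 3 independent isolations, each pooled from 7 animals, and the labels name no genotype or treatment that differs between the ages. ECs were labelled by injecting a VE-Cadherin antibody into the living mouse and were then sorted from digested RPE (retinal pigment epithelium) and choroid, so a group is a pool of animals and its cells are those that the sort took as VE-Cadherin positive. The P30 mice were male and female, and the sex of the P5 mice was not given in the sources used here.

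LIN28B binds the precursors of the let-7 microRNAs and blocks their maturation. Mature let-7 in turn represses mRNAs that carry matches to its seed, among them those of Lin28b itself, Hmga2 and the Igf2bp family, so that the pair forms a switch between early growth and later quiescence. The IGF2BP proteins bind the mRNA of Igf2, a fetal growth factor, and many other mRNAs, and they affect the stability, transport and translation of these. HMGA1 and HMGA2 are AT-hook proteins that bend DNA and open chromatin in growing tissue, and Igf2bp2 is a known target of HMGA2. SOX4 and SOX11 are, with SOX12, the SoxC transcription factors, which act in progenitors and in cells that start to differentiate. In endothelium the better known SOX proteins are the SoxF group, SOX7, SOX17 and SOX18, which act in vessel growth and arterial identity.

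The let-7 sequences and the matches in these mRNAs are shown because they are the sequence feature that ties most of these genes to one pathway. The 8 mature let-7 sequences of the 5′ arm examined, from let-7a to let-7i as RefSeq gives them (GRCm38.p6), share 1 seed. Capitals mark the seed, bases 2 to 8, in let-7a and in let-7d, which differ outside it:
mmu-let-7a-5p: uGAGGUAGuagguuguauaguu
mmu-let-7d-5p: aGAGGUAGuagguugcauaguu

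The mRNA letters that pair with this seed are CTACCTC, and an A after them gives the longer match CTACCTCA, which holds the shorter one. Only the mRNA strand of the longest annotated 3′ UTR of each gene was searched (GENCODE vM1 on NCBIM37, the build also called mm9). Of the 8 genes, 6 held at least 1 match and 5 held the 8-base form. Across all 18739 genes with a 3′ UTR, 9.05% held a 7-base match and 3.14% an 8-base match, over a median length of 921 bases. For each of the 6 genes the match nearest the stop codon follows, with 17 bases before it and with the match in capitals:
Igf2bp1, chr11:95823092-95823116, minus strand: gtgctgtgcgaagtaaaCTACCTCA
Igf2bp2, chr16:22059546-22059570, minus strand: aaacacacaaataaaagCTACCTCA
Igf2bp3, chr6:49036786-49036810, minus strand: cgtgcatttttactcaaCTACCTCA
Lin28b, chr10:45100828-45100852, minus strand: tcacccgggcgggaagtCTACCTCA
Hmga1, chr17:27700220-27700244, plus strand: tctcctctgttcacaaaCTACCTCt
Hmga2, chr10:119801280-119801304, minus strand: gcgccgacattcaatttCTACCTCA

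Igf2bp1, Lin28b and Hmga2 each held 4 matches. Longer UTRs hold matches more often, and these have 6337, 4445 and 3014 bases. Among genes whose UTR was within 20% of the same length, 4 or more matches were found in 0.279% for Igf2bp1, 0.299% for Lin28b and 0.155% for Hmga2. These shares are of 358, 1002 and 1935 genes, and all such shares given here count the gene itself. Igf2bp2, Igf2bp3 and Hmga1 held 1 match each, in UTRs of 1784, 2121 and 1183 bases, and 13.2%, 14.2% and 9.13% of genes of like length had at least 1. No match stood in the annotated UTRs of Sox4 (2780 bases) and Sox11 (524 bases). A match is a string of letters and not a measured binding site. The mature let-7 microRNAs were not measured: the 11 Mirlet7 gene entries were listed at 0 in every isolation, in libraries that were not made to capture small RNA.

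**Figure D1:**
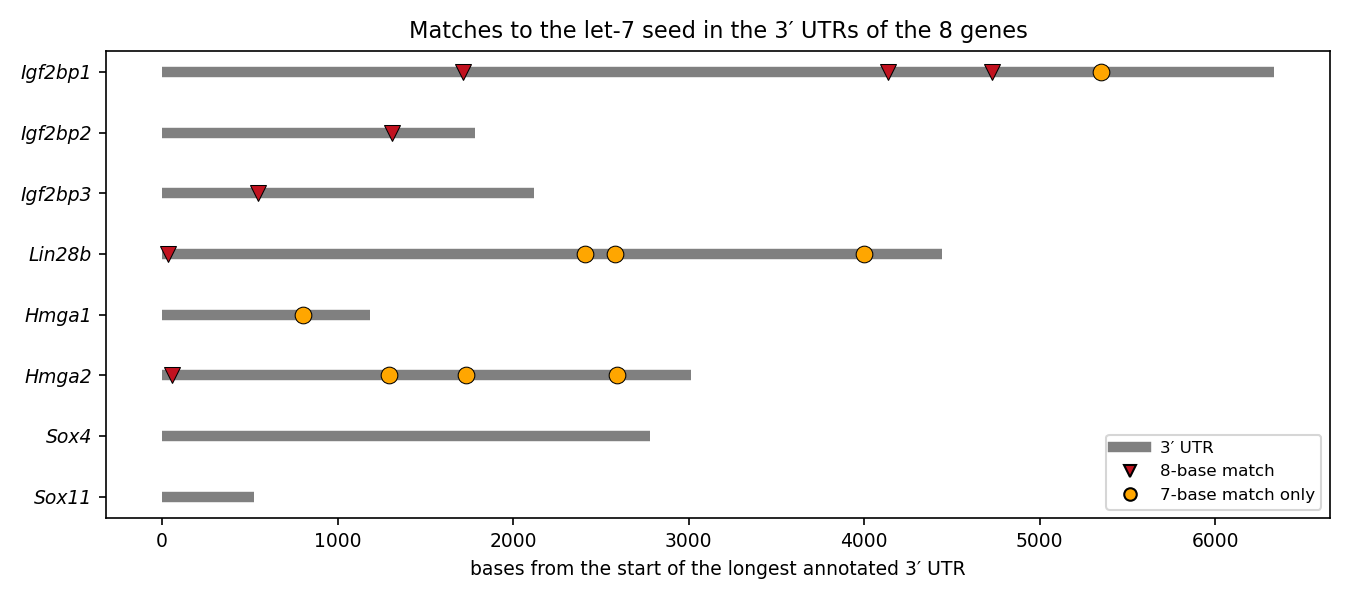
Map of the longest annotated 3′ UTR of each of the 8 genes, drawn to scale from its start (x axis, bases), with the matches to the let-7 seed as triangles (8-base match) or circles (7-base match only). Igf2bp1, Lin28b and Hmga2 carry 4 matches each, Igf2bp2, Igf2bp3 and Hmga1 carry 1 each, and Sox4 and Sox11 carry none.

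Levels are given as FPKM, the number of fragments scaled by sequencing depth and by transcript length, so that levels of different genes can be set side by side. At P5 the order of mean levels ran from Sox4 (174 ± 9.03, SD, n = 3) through Igf2bp3 (41.2 ± 5.80), Sox11 (37.7 ± 8.91), Hmga1 (36.0 ± 9.80), Igf2bp2 (9.14 ± 3.43), Hmga2 (4.31 ± 1.87) and Igf2bp1 (0.870 ± 0.182) to Lin28b (0.317 ± 0.0815). The isolations of Igf2bp3, Sox11 and Hmga1 overlapped with one another at P5, and those of Igf2bp2 overlapped with those of Hmga2. Sox4 stood above 91.0% of all listed genes at P5, whereas Lin28b stood above 35.1% of them, a share close to that of the genes listed at 0. At P30 the order was Sox4, Hmga1, Sox11, Igf2bp2, Igf2bp3, Hmga2, Igf2bp1 and Lin28b, so that Igf2bp3 stood above Hmga1, Sox11 and Igf2bp2 at P5 and below them at P30. The P30 values of Sox11 overlapped with those of Igf2bp2 and met those of Igf2bp3 at 2.41 FPKM, and the values of Igf2bp3 also overlapped with those of Hmga2.

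For each of the 8 genes, every P30 isolation lay below every P5 isolation. The same held for 28.0% of the 15773 genes above 0 in at least 1 isolation. The change with age was tested with limma on log2(FPKM + 1) over the 12481 genes with a mean of at least 5 FPKM at 1 or both ages, and a gene counted as changed with an adjusted p under 0.01 and at least a 2-fold difference in mean FPKM + 1. Of the 8 genes, 5 met the minimum, and of these Igf2bp3, Sox4 and Sox11 fell, beside 5.82% of all genes tested, while none rose, beside 5.89% of all genes. At an unadjusted p under 0.05 in the same limma fit, all 5 were lower and 0 were higher, beside 28.8% of all genes tested that were lower and 20.7% that were higher at this threshold. Their median log2 change was -1.36, against -0.10 over all genes tested. Igf2bp2 and Igf2bp3 met the minimum only through their P5 level, which makes a fall more likely among the genes tested, so these counts describe the list. Because these are bulk samples, fewer cells expressing a gene and less of its mRNA per cell cannot be told apart.

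**Figure D2:**
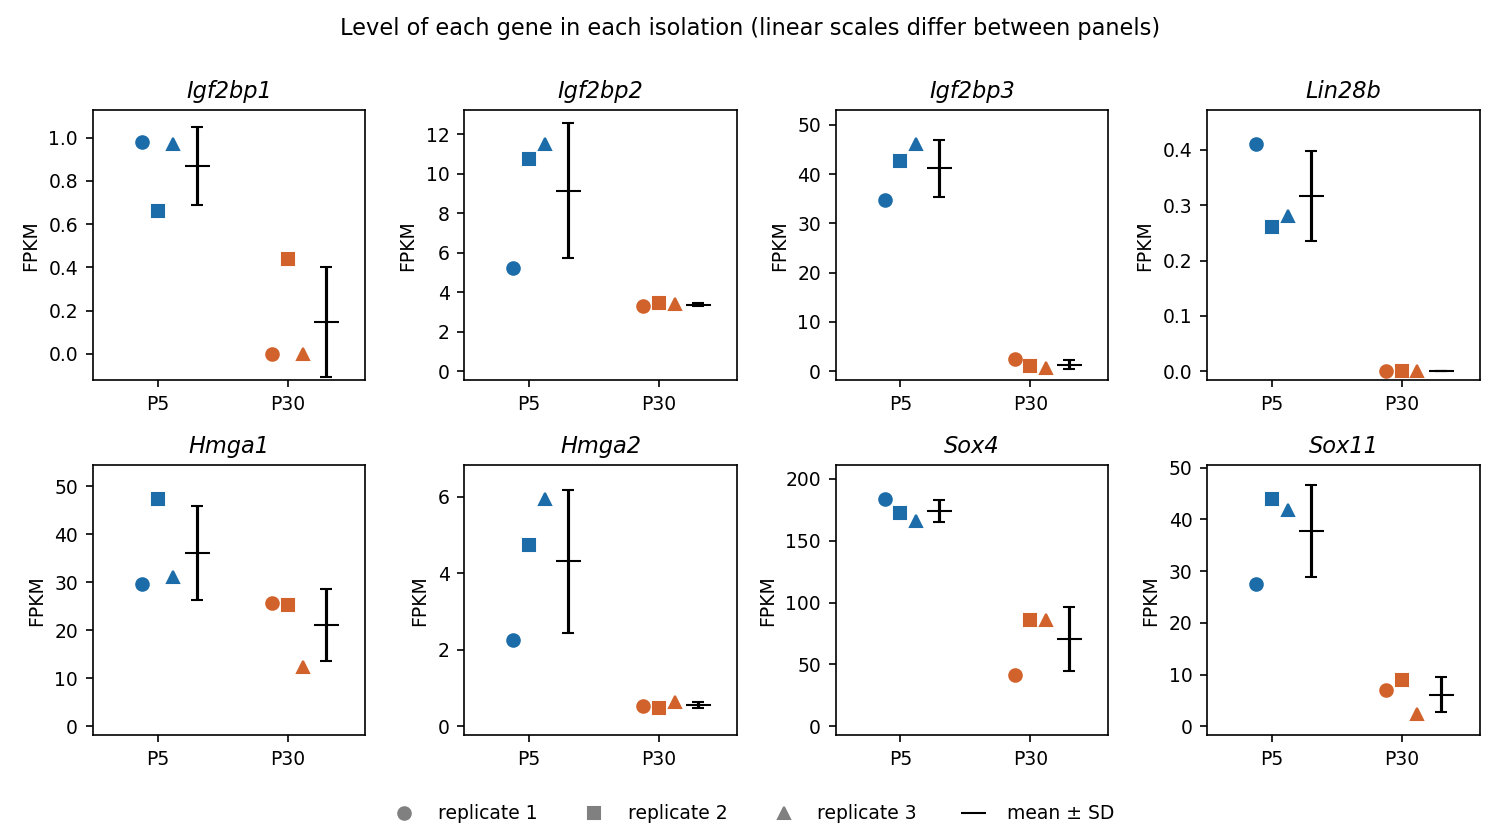
FPKM of each of the 8 genes in each isolation (y axis, linear, a different scale in each panel) at P5 (blue) and P30 (orange), with a symbol for each replicate and bars for the mean ± SD, n = 3. The P5 and P30 points do not overlap for any of the 8 genes, and for Hmga1 the lowest P5 value (29.67 FPKM) lies just above the highest P30 value (25.64 FPKM).

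Lin28b, the let-7 antagonist, lies at chr10:45096426-45206201 on the minus strand (mm9, as are all gene positions given here). It was listed at 0.41, 0.26 and 0.28 FPKM in P5 replicates 1, 2 and 3 and at 0 in all 3 P30 isolations. All 3 P5 values were thus small but above 0, and no P30 value was. Lin28b was under the minimum for the limma test, and the exact two-sided permutation test gave p = 0.1, which is the smallest value that 3 isolations against 3 can give. Without a minimum, limma gave an adjusted p of 0.229 for it. Lin28a, its paralog, which also blocks let-7 maturation, was listed at 0 in all 6 isolations.

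Igf2bp3 (chr6:49035220-49164953, minus strand) encodes the family member known as an oncofetal protein, and it showed the largest change of the 5 genes tested. It read 34.75, 42.71 and 46.03 FPKM at P5 and 2.41, 1.02 and 0.63 FPKM at P30. The P5 isolations were close to one another, and the highest P30 value was far below the lowest P5 value. The mean went from 41.2 ± 5.80 to 1.35 ± 0.936 FPKM, a ratio of 30.4, and the limma log2 change was -4.23 with an SE of 0.34 and an adjusted p of 0.000265. This was the 73rd most negative log2 change of the 12481 genes tested. Igf2bp3 passed both limits under each of the 14 settings it was tested with, with adjusted p in limma from 0.00015 to 0.00367. The annotated gene 2410003K15Rik overlaps Igf2bp3 on the other strand, and it did not move in parallel, with 29.88 to 42.92 FPKM at P5 and 36.83 to 43.72 FPKM at P30.

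Igf2bp2 (chr16:22059082-22163372, minus strand), which in adult tissue is the most widely expressed of the family, differed less. Its P5 values were 5.21, 10.74 and 11.48 FPKM and its P30 values 3.32, 3.43 and 3.38 FPKM. The 3 P30 isolations were almost the same, whereas P5 replicate 1 stood lower than the other P5 isolations and nearer to P30. The mean was 9.14 ± 3.43 FPKM at P5 and 3.38 ± 0.0551 FPKM at P30, a ratio of 2.71. The limma log2 change was -1.15 with an SE of 0.38, and the adjusted p of 0.0473 missed the limit.

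Igf2bp1 (chr11:95818477-95867254, minus strand), best known in embryonic tissue, was low throughout. It was listed at 0.98, 0.66 and 0.97 FPKM at P5, and at P30 at 0 in replicates 1 and 3 and 0.44 FPKM in replicate 2. It was under the minimum for the limma test, with an exact two-sided permutation p of 0.1 and, without a minimum, an adjusted p in limma of 0.0888.

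Since the paralogs differed in how far they moved, the make-up of the family was compared between ages. The summed FPKM of the 3 Igf2bp genes was 40.94, 54.11 and 58.48 at P5 and 5.73, 4.89 and 4.01 at P30. Igf2bp3 made up 84.9%, 78.9% and 78.7% of this sum at P5 and 42.1%, 20.9% and 15.7% at P30. Igf2bp2 made up 12.7%, 19.8% and 19.6% at P5 and 57.9%, 70.1% and 84.3% at P30. Thus Igf2bp3 was the larger part in every P5 isolation, and Igf2bp2 was the larger part in every P30 isolation. The share of Igf2bp3 differed by -54.6 percentage points and that of Igf2bp2 by 53.4 points, each with p = 0.1 in an exact two-sided permutation test, the smallest possible, and 0.167 after Benjamini-Hochberg adjustment over the 5 shares tested. The 2 shares are parts of 1 sum and are not independent of each other. The share of Igf2bp1 was 1.76% ± 0.593 at P5 and at P30 came from replicate 2 alone (exact permutation p = 1.0).

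**Figure D3:**
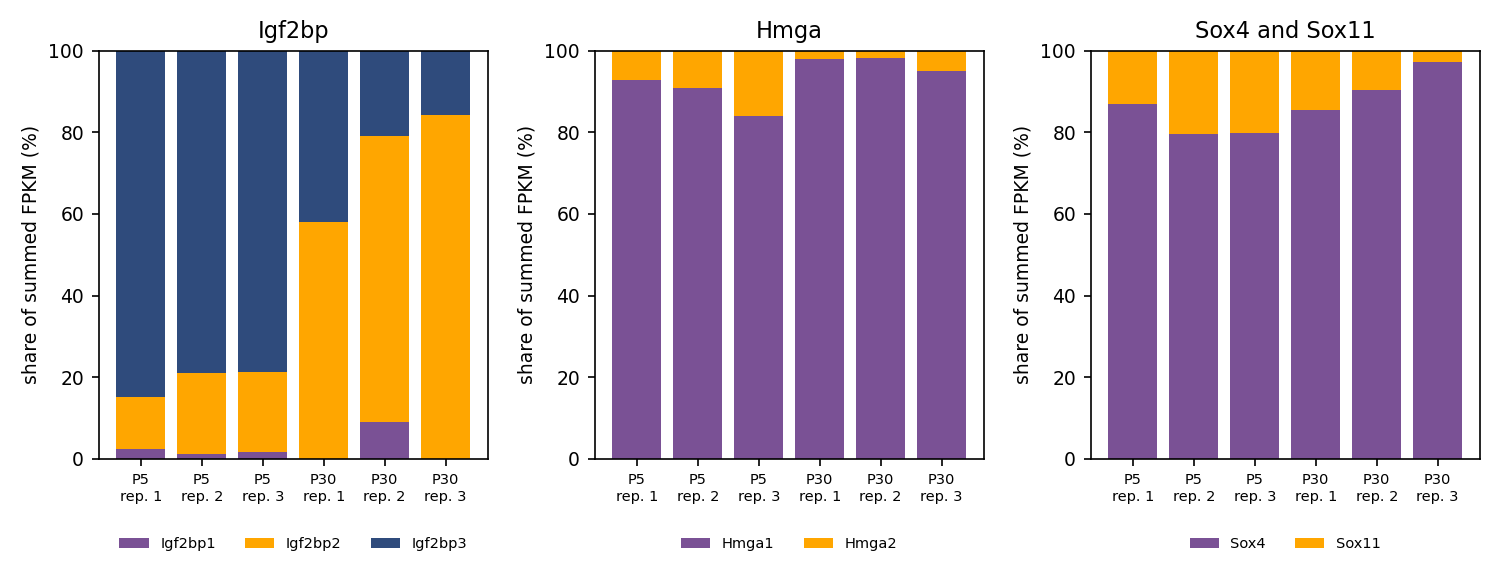
Share of each paralog in the summed FPKM of its family (y axis, %, stacked to 100%) in each isolation, for Igf2bp1 to Igf2bp3, for Hmga1 and Hmga2, and for Sox4 and Sox11. Igf2bp3 is the larger part of the Igf2bp bars at P5 (78.7% to 84.9%) and Igf2bp2 at P30 (57.9% to 84.3%), while Hmga1 and Sox4 are the larger part of their families in every isolation.

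Hmga2 (chr10:119798331-119913525, minus strand), the HMGA protein mostly limited to embryonic and growing tissue, read 2.26, 4.74 and 5.93 FPKM at P5 and 0.54, 0.48 and 0.64 FPKM at P30. The P30 values were close together, and the P5 values were spread 2.62-fold, with P5 replicate 1 the lowest. The mean fell from 4.31 ± 1.87 to 0.553 ± 0.0808 FPKM, a ratio of 7.79, but Hmga2 was under the minimum of 5 FPKM, and the exact two-sided permutation p was 0.1. With a minimum of 1 FPKM or with none, limma gave adjusted p of 0.0174 and 0.0124, above the limit of 0.01.

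Hmga1 (chr17:27693565-27700619, plus strand), which is also expressed in many dividing adult cells, read 29.67, 47.31 and 31.1 FPKM at P5 and 25.64, 25.25 and 12.34 FPKM at P30. P5 replicate 2 was the highest and P30 replicate 3 the lowest, and the other isolations lay within a few FPKM of one another across the ages. The mean was 36.0 ± 9.80 FPKM at P5 and 21.1 ± 7.57 FPKM at P30, a ratio of 1.71. Neither limit was met, with a limma log2 change of -0.78, an SE of 0.32 and an adjusted p of 0.088. Without P30 replicate 3 the log2 change was -0.45, with an adjusted p of 0.169 in limma. Hmga1 overlaps AI413582 on the other strand, which read 17.98 to 30.12 FPKM at P5 and 36.98 to 54.94 FPKM at P30, and whether strand was used in the counting is not given in the sources used here.

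Hmga1 made up most of the summed HMGA level at both ages, with 92.9%, 90.9% and 84.0% at P5 and 97.9%, 98.1% and 95.1% at P30. Its share was higher in every P30 isolation, by 7.78 percentage points on average (exact two-sided permutation p = 0.1, adjusted 0.167).

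Sox4 (chr13:29040788-29045582, minus strand), a single-exon gene, had the highest level of the 8. It read 183.49, 172.2 and 165.63 FPKM at P5 and 41.0, 85.58 and 85.83 FPKM at P30. The P5 isolations were within 1.11-fold of one another, whereas P30 replicate 1 stood below the other P30 isolations, with a spread of 2.09-fold at that age. The mean fell from 174 ± 9.03 to 70.8 ± 25.8 FPKM, a ratio of 2.45, with a limma log2 change of -1.36, an SE of 0.27 and an adjusted p of 0.00806. This call was close to the limit and was lost in limma without any 1 of the P5 isolations (adjusted p of 0.0318, 0.0326 and 0.0337 for replicates 1, 2 and 3), without P30 replicate 2 (0.0106), with the replicate number as a block (0.0127), with no minimum (0.0117) and without the trend (0.0189). Its sign stayed negative in each of them.

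Sox11 (chr12:28025562-28027574, minus strand), the closest SoxC paralog of Sox4, read 27.51, 43.92 and 41.75 FPKM at P5 and 6.99, 8.99 and 2.41 FPKM at P30. The ages were far apart, and within them P5 replicate 1 and P30 replicate 3 were the lowest. The mean fell from 37.7 ± 8.91 to 6.13 ± 3.37 FPKM, a ratio of 6.15, and the limma log2 change was -2.55, with an SE of 0.42 and an adjusted p of 0.00371. Without P5 replicate 1, 2 or 3 the adjusted p in limma was 0.0111, 0.0226 and 0.0238, past the limit, so that without any 1 of the P5 isolations only Igf2bp3 of the 8 genes was called. Over all genes, the same left-out isolations took the genes lower at P30 from 726 to between 291 and 427.

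Sox4 made up 87.0%, 79.7% and 79.9% of the summed Sox4 and Sox11 level at P5 and 85.4%, 90.5% and 97.3% at P30. These ranges overlapped, and the difference of 8.90 percentage points gave p = 0.2 in an exact two-sided permutation test (adjusted 0.25). Sox12, the remaining SoxC gene, read 40.43, 43.79 and 37.69 FPKM at P5 and 8.22, 10.07 and 6.39 FPKM at P30. It fell with a limma log2 change of -2.19, an SE of 0.21 and an adjusted p of 0.000432, so that each SoxC gene passed both limits with a lower level at P30.

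The other Sox genes did not move one way. Of 17 listed, 9 were tested, of which 2 fell (Sox12 and Sox7) and 1 rose (Sox17), with a median log2 change of 0.15 against -0.10 over all genes. The SoxF genes of endothelium differed from one another. Sox7 fell from 563 ± 50.1 to 242 ± 46.1 FPKM (log2 change -1.23, limma adjusted p of 0.00118). Sox17, which is known for arterial ECs, rose from 81.2 ± 12.1 to 223 ± 30.2 FPKM (log2 change 1.45, limma adjusted p of 0.000611). Sox18 stayed high, with 728 ± 72.2 FPKM at P5 and 789 ± 210 FPKM at P30, and did not pass the test (log2 change 0.08, limma adjusted p of 0.770). At P30 the mean FPKM of each SoxF gene stood above that of Sox4, whereas at P5 Sox17 stood below it.

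Among other high mobility group (HMG) proteins, chromatin proteins that lack the AT-hook, all 9 listed were tested, of which 3 fell and none rose. The 3 were the nucleosome-binding Hmgn2 (357 ± 104 to 62.3 ± 12.4 FPKM, log2 change -2.47, limma adjusted p of 0.000492), the DNA-bending Hmgb2 (148 ± 40.6 to 25.9 ± 3.21 FPKM, log2 change -2.43, limma adjusted p of 0.00037) and Hmgb3 (141 ± 23.2 to 40.9 ± 2.56 FPKM, log2 change -1.75, limma adjusted p of 0.000301). The median log2 change of the 9 was -0.89. At an unadjusted p under 0.05 in limma, 6 of the 9 were lower and 0 were higher, against 28.8% and 20.7% of all genes tested.

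The proteins that process or turn over let-7 changed little. Of 16 listed, 14 were tested, and none passed both limits in either direction in limma, with a median log2 change of -0.25. At an unadjusted p under 0.05, 6 of the 14 were lower and 0 were higher, against 28.8% and 20.7% of all genes tested. Eif2c1, which encodes the Argonaute protein AGO1 and is named after its values were seen, was the only one of them with an adjusted p under 0.01 (63.97 to 39.76 FPKM on average, log2 change -0.68, limma adjusted p of 0.00681), short of 2-fold. Trim71, itself a let-7 target and a partner of Lin28 in embryonic cells, was listed at 0 in every isolation.

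Known let-7 targets outside the 8 genes were listed with 22 members, of which 20 were tested, 4 fell and none rose, with a median log2 change of -0.41 and, at an unadjusted p under 0.05 in limma, 9 of the 20 lower and 2 higher, against 28.8% and 20.7% of all genes tested. Those that fell included Ccnd1, which encodes cyclin D1 (408 ± 89.1 to 102 ± 10.1 FPKM, log2 change -1.97, limma adjusted p of 0.000284), the transcription factor gene Mycn (57.91, 59.04 and 60.01 FPKM at P5 and 13.74, 18.84 and 21.33 FPKM at P30, log2 change -1.68, limma adjusted p of 0.000707), and the cell cycle phosphatase gene Cdc25a, named after its values were seen (53.6 ± 5.67 to 22.0 ± 2.62 FPKM, log2 change -1.25, limma adjusted p of 0.00131). Without P5 replicate 2 or without P5 replicate 3, the count of genes that fell was 2. In their longest 3′ UTR, 13 of the 22 targets held a 7-base let-7 match, and of the genes just named Cdc25a did and Ccnd1 and Mycn did not.

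Across all genes the let-7 match went with little difference. Of the 10668 tested genes with a 3′ UTR and no match, 5.82% were lower and 6.06% higher at P30, with a median log2 change of -0.10. Of 813 genes with the 7-base match only, 5.90% were lower and 4.67% higher, with a median of -0.13. Of 435 genes with the 8-base match, Igf2bp2 and Igf2bp3 among them, 7.59% were lower and 6.21% higher, with a median of -0.12, and their UTRs were longer, with a median of 2272 bases against 1075 bases without a match. These are counts over genes and were not tested.

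Of 11 transcripts known to be bound by IGF2BP proteins, 9 were tested, of which 2 fell and 1 rose, with a median log2 change of -0.39. The 2 that fell are both transcripts of the imprinted Igf2 and H19 locus. Igf2, which gave the protein family its name, read 593.69, 1077.44 and 1208.01 FPKM at P5 and 128.31, 137.7 and 79.66 FPKM at P30 (log2 change -3.02, SE 0.31, limma adjusted p of 0.000524). H19, a non-coding RNA that is expressed in fetal tissue and hosts a microRNA, read 832.09, 1241.12 and 1262.49 FPKM at P5 and 25.4, 31.47 and 26.2 FPKM at P30 (log2 change -5.26, SE 0.18, limma adjusted p of 2.6e-05). In both, as in Igf2bp2, Igf2bp3 and Hmga2, P5 replicate 1 was the lowest and replicate 3 the highest of the P5 isolations. Mycn and the proliferation genes Mki67 and Top2a had the same order, and Sox12 did not, so the order was not particular to Igf2, H19 and the Igf2bp genes. The gene that rose was Lamb2, the laminin β2 chain of vessel basement membranes (298 ± 54.0 to 717 ± 7.35 FPKM, log2 change 1.28, limma adjusted p of 0.000724). None of the 10 with an annotated 3′ UTR held a let-7 match.

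**Figure D4:**
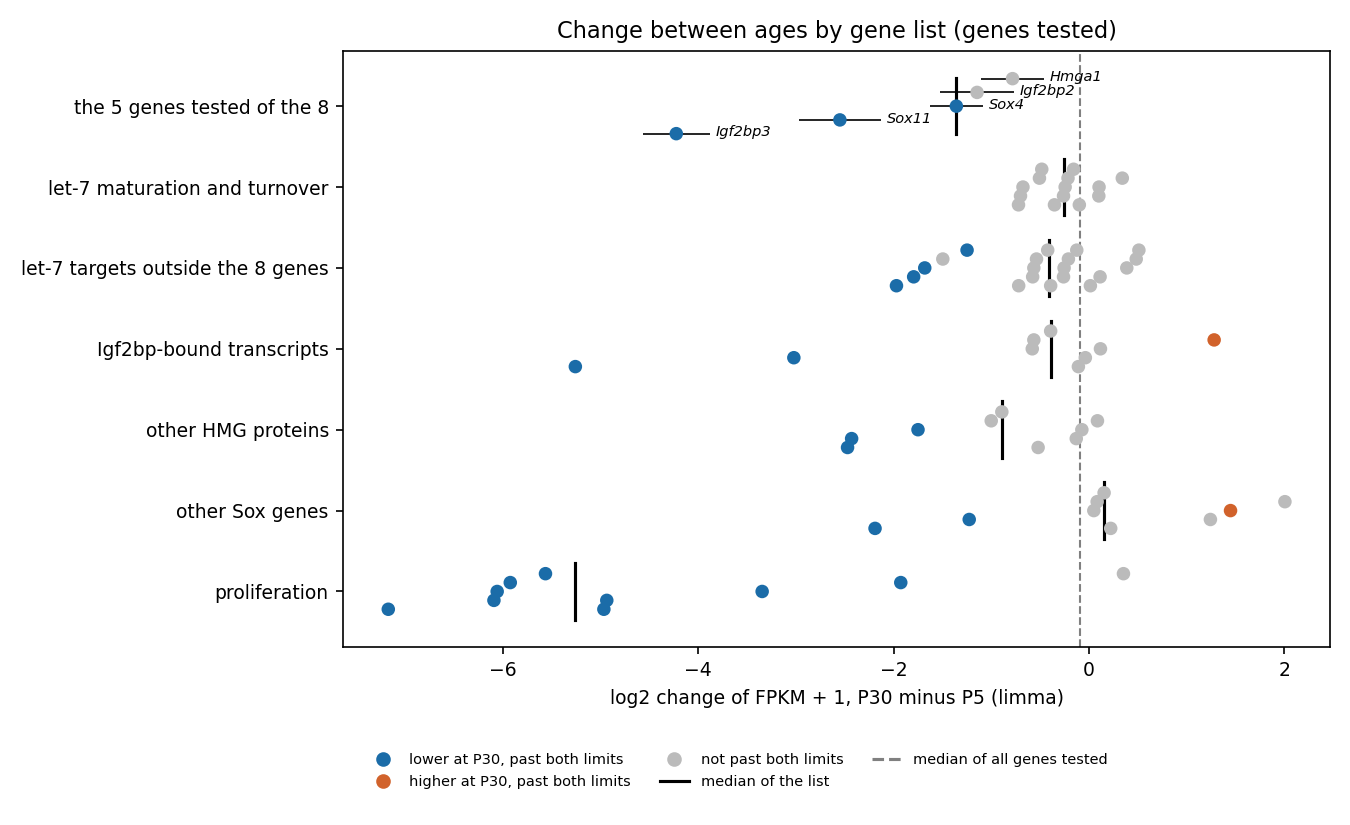
Log2 change of FPKM + 1 (x axis, P30 minus P5, limma) of each gene tested, by list (rows), coloured by whether it passed both limits, with the median of each list as a black line and the median of all genes tested (-0.10) as a dashed line. Horizontal bars on the 8 genes' row are ± 1 SE, and Igf2bp3 at -4.23 and Sox11 at -2.55 lie farthest from 0 there.

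Genes of cell division differed between the ages as well. Of 10 proliferation genes, 9 fell and none rose past the limits, with a median log2 change of -5.27. The largest falls were those of the mitotic genes Birc5 (146.7 ± 38.3 FPKM at P5 and listed at 0 in every P30 isolation), Aurkb (log2 change -6.09) and Top2a (log2 change -6.06, 222 ± 70.2 to 2.33 ± 0.962 FPKM). Pcna, a replication clamp with roles in repair, was the gene that did not fall, with 263.95 to 334.44 FPKM at P5 and 362.14 to 431.32 FPKM at P30. The summed FPKM of the list was 1125, 1482 and 1793 at P5 and 411.6, 481.2 and 417.0 at P30. All 10 of these genes were lowest in P5 replicate 1 among the P5 isolations, as were 5 of the 8 genes (Igf2bp2, Igf2bp3, Hmga1, Hmga2 and Sox11). Igf2bp1, Lin28b and Sox4 were instead highest in that isolation, and the share of all genes lowest in it was not computed. The part of proliferation in the change of the 8 genes was not tested.

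**Figure D5:**
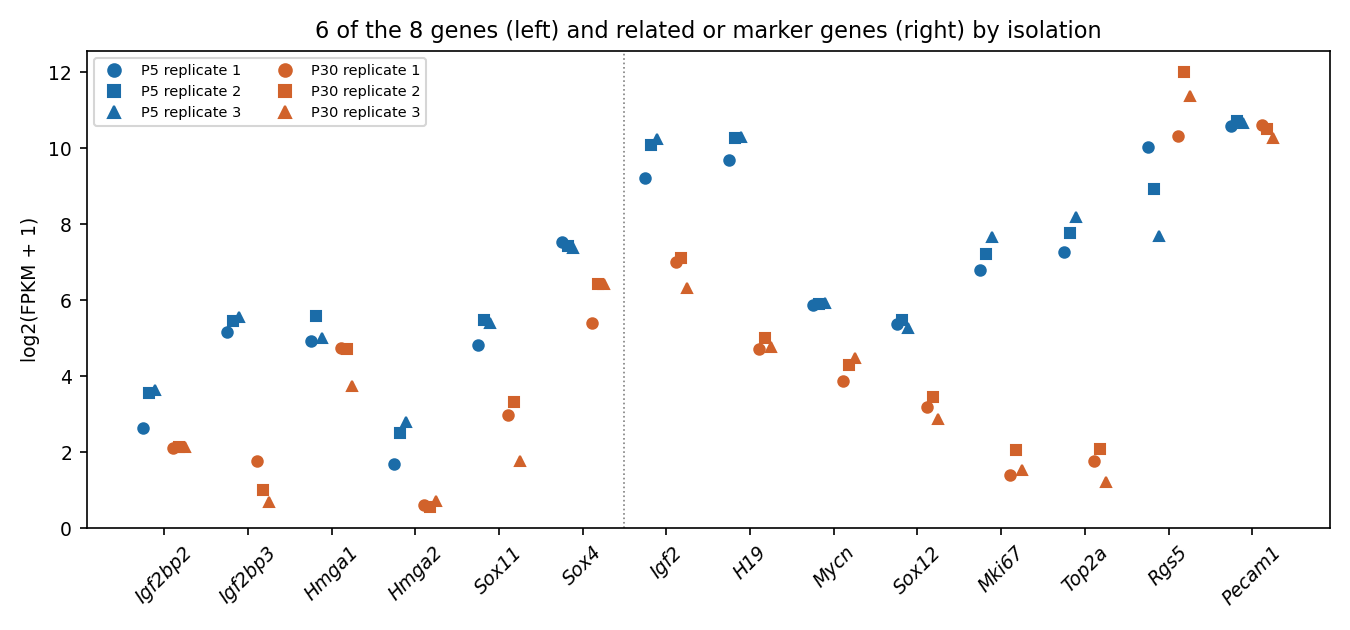
Log2(FPKM + 1) (y axis) in each isolation for Igf2bp2, Igf2bp3, Hmga1, Hmga2, Sox11 and Sox4 (left of the dotted line) and for Igf2, H19, Mycn, Sox12, Mki67, Top2a, the pericyte marker Rgs5 and the EC marker Pecam1 (right), with P5 in blue and P30 in orange and a symbol for each replicate. P5 replicate 1 (blue circle) is the lowest P5 isolation for 5 of the 6 genes on the left and the highest for Sox4 and Rgs5.

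The sorted cells were checked against marker genes. The EC markers Cdh5, which encodes VE-Cadherin (2877.86 to 3068.6 FPKM at P5 and 1839.82 to 1942.6 FPKM at P30), and Pecam1 (1538.86 to 1680.32 and 1243.31 to 1575.04 FPKM) were high in every isolation. The 8 EC markers together summed to 18050 to 18520 FPKM at P5 and 24630 to 29970 FPKM at P30. Of them, Kdr, Tie1, Emcn and Plvap were higher in every P30 isolation and Cdh5 was lower in each, and Plvap, which forms the diaphragms of endothelial fenestrae, rose past both limits (4692 ± 140.2 to 11590 ± 2515 FPKM, log2 change 1.28, limma adjusted p of 0.00182). Markers of other cells in the dissected tissue were mostly higher at P30. All 11 pericyte and smooth muscle genes were highest in P5 replicate 1 among the P5 isolations, with a sum of 1882, 1015 and 552.6 FPKM at P5 and 2238, 7224 and 4093 FPKM at P30, and 8 of the 11 were higher in every P30 isolation. Of 8 RPE genes, 7 were higher in every P30 isolation. The 8 summed to 168.8 to 221.6 FPKM at P5 and 3920, 2202 and 557.4 FPKM at P30, so that P30 replicate 1 had the most. Among the P30 isolations, replicate 1 had the lowest Sox4 and Igf2bp2 and the highest Igf2bp3 and Hmga1. The share of all genes higher in every P30 isolation was not computed, so counts of such markers only describe the lists. The sums went from 16.3 to 28.3 FPKM at P5 to 58.5 to 409.7 FPKM at P30 for 8 photoreceptor genes, from 421.7 to 850.8 FPKM to 1443 to 3244 FPKM for 6 fibroblast genes, and from 12.9 to 51.4 FPKM to 60.2 to 306.3 FPKM for 5 Schwann cell genes.

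Sox4 and Sox11 are also known from retinal progenitors and young neurons, whose 10 markers summed to 447.6 to 545.1 FPKM at P5 and 543.9 to 982.0 FPKM at P30. Most of this sum came from Six3 (390.94 to 433.96 FPKM at P5 and 442.96 to 936.95 FPKM at P30) and Stmn2 (53.92 to 108.82 and 42.44 to 79.51 FPKM), and the other 8 markers summed to 2.29 to 10.1 FPKM at P5 and 2.62 to 21.4 FPKM at P30. Of these, Six6, Dcx and Elavl3 were listed at 0 in every isolation. For haematopoietic cells the sum of 7 genes was 566.0 to 852.3 FPKM at P5 and 321.0 to 825.1 FPKM at P30. Of the 7, 3 were lower in every P30 isolation, beside 28.0% of all genes above 0 in at least 1 isolation. Ptprc (27.1 to 7.82 FPKM on average, limma adjusted p of 0.000732) and Emr1 (91.3 to 18.8 FPKM, 0.00551) fell past both limits, beside 5.82% of all genes tested. Lyz2 (204 to 254 FPKM) and Cd14 (61.0 to 86.3 FPKM) had higher means at P30 and did not pass the limits. The sum of 5 melanocyte genes ranged from 97.0 to 456.6 FPKM at P5 and from 119.9 to 1251 FPKM at P30, and that of 5 erythroid genes from 160.1 to 487.4 FPKM and from 439.3 to 1688 FPKM. The part of any of these cells in the levels of the 8 genes was not tested.

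For each of the 5 genes tested, the 2 genes with the most similar profile over the 6 isolations were found among the other 12480 genes tested, by the root mean square (RMS) difference of log2(FPKM + 1) after each gene was centred on its own mean. For Igf2bp3 they were the mitotic spindle gene Ckap2l (RMS difference 0.16, 71.9 FPKM on average at P5 and 3.25 at P30) and the chromokinesin gene Kif22 (0.18, 88.0 and 4.28 FPKM). For Igf2bp2 they were Wee1, a kinase that restrains entry into mitosis (0.16, 65.6 and 27.2 FPKM), and Mtap, an enzyme of methionine salvage (0.17, 81.9 and 35.4 FPKM). For Sox11 they were the potassium channel subunit Kcne3 (0.15, 122 and 20.5 FPKM) and the endonuclease subunit Eme1 (0.19, 13.9 and 2.09 FPKM). For Sox4 they were Apbb1ip, an adaptor between Rap1 and integrins (0.10, 33.4 and 12.4 FPKM), and Pign, an enzyme of GPI anchor synthesis (0.11, 39.9 and 16.8 FPKM), and both shared its low value in P30 replicate 1. For Hmga1 they were Gm10345 (0.13, 10.4 and 5.10 FPKM) and the co-chaperone Bag2 (0.15, 27.2 and 15.2 FPKM). These are resemblances over 6 isolations that share their ages and pools, and no test was made on them.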

How the data were processed

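RNAseq libraries (TruSeq RNA Sample Preparation Kit, HiSeq2000) of 6 isolations, 3 at P5 and 3 at P30, were aligned by the authors to mm9 with TopHat and summarised with CuffLinks using GC and upper quartile normalization, and they deposited 1 FPKM value per gene symbol and isolation. CASAVA 1.8.2 and FastQC are named in the submitters' processing notes, and the gene annotation and the other versions are not given in the sources used here. Read counts were not used here: low FPKM values did not fall on multiples of 1 read (at most 6.72% of ratios between isolations in the fullest bin of 0.05 log2), so the depth is unknown, no counting interval is given, and a value of 0 is reported as listed at 0. The number of isolations limits the precision. Summed FPKM were 1432700 to 1485332 at P5 and 1571227 to 1734639 at P30, and 33.4% to 37.27% of genes were at 0.

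Groups followed the labelled age. Genes with a mean of at least 5 FPKM at 1 or both ages entered a linear model per gene (limma 3.58.1, R 4.3.3; eBayes with trend) of log2(FPKM + 1), a scale that understates the change of low genes, with Benjamini-Hochberg adjustment over all genes tested. The limits (adjusted p under 0.01 and 2-fold in mean FPKM + 1) are those of the study's methods, which used a count test. The minimum of 5 FPKM is also theirs, but they applied it after the test, whereas here it chose the genes before the test and its adjustment. Paralog shares were compared by exact permutation tests (scipy 1.17.1). The scripts were tested on simulated data. The 8 genes, the lists and the tests were chosen with earlier results of these data known. Named genes were the 8 genes, in each list the 3 largest falls and the 3 largest rises past both limits, Lin28a, Igf2, H19, Sox12, Sox17 and Sox18, the 2 nearest profiles of each gene tested, and markers that bear on a result. 3′ UTRs, positions and matches were read from GENCODE vM1 and the NCBIM37 genome, and the mature let-7 sequences from a RefSeq table. Alternatives were pseudocounts of 0.1 and 5, a minimum of 1 FPKM or none, no trend, quantile normalization, rescaling to the same sum, the replicate number as a block, and leaving out each isolation. Some results are not reported here.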

Additional observations from a re-analysis of the deposited data

How the results depend on the processing

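All 8 genes kept a lower level at P30 under each of the 14 alternatives run, and Igf2bp3 stayed past both limits in limma in each of them. Sox4 lost its call, with a log2 change of -1.36 in each case, with no minimum (limma adjusted p of 0.0117), without the trend (0.0189) and with the replicate number as a block (0.0127). When single isolations were left out, the change of Sox4 ranged from -1.53 to -1.01 and that of Sox11 from -2.86 to -2.09, and the count of the 8 genes called lower ranged from 1 to 3. Over all genes the counts ranged from 291 to 754 lower and from 396 to 849 higher, against 726 and 735 with all isolations. The share of Igf2bp1 in its family reversed, to -1.76 percentage points, without P30 replicate 2 (range -1.76 to 2.74), the only P30 isolation in which it was above 0.

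The 3 genes under the minimum depended on the pseudocount. With 0.1 the log2 changes were -2.45 for Igf2bp1, -2.04 for Lin28b and -2.66 for Hmga2, and with 5 they were -0.19, -0.0885 and -0.72. Rescaling to the same sum moved the median of all genes by -0.17 on the log2 scale, and 62.9% of the calls were then lower at P30 (1070 lower, 632 higher), against 49.7% as deposited; no call among the 8 genes changed. Isolations with the same replicate number did not deviate together (r from -0.09 to -0.03 over 3 pairs, and none of the P5 isolations correlated best with its own number). No pairing by number was thus seen, but 3 pairs are too few to exclude one. With the block 524 genes were lower and 585 higher, and Sox4 was the only one of the 8 genes to change its call. Depth could not be read from FPKM, which limits what can be said of Lin28b and Igf2bp1.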
